A study of Mus musculus with 12 samples.

Results

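Islets of newborn *Aldh1b1* null mice were compared with islets of newborn wild-type mice by RNA sequencing. The comparison used 6 of the 12 libraries of the series, namely the 3 null and the 3 wild-type libraries made at postnatal day 1 (P1), and every gene in the deposited table. The null mice carried the *Aldh1b1* tm1lacZ allele, in which *lacZ* was knocked into the gene, and the wild-type mice did not. The islets came from fresh pancreata, spent 2 h in RPMI-1640 medium with serum before RNA was prepared, and were pooled from 3 mice for each library, so single animals cannot be told apart. Nothing in the labels says that the pools came from separate litters, and p-values measure the spread between these pools. The other 6 libraries, of week 8 islets, were used for the test of whether the effect of the genotype differed with age, for their acinar share of reads and for an alternative fit of all 12 libraries.

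Islets are clusters of endocrine cells that lie within the exocrine pancreas. Beta cells secrete insulin and rely on transcription factors such as PDX1, NKX6-1, NKX2-2 and MAFA, while alpha cells secrete glucagon and delta cells somatostatin. The acinar cells around the islets make digestive enzymes, and much of their gene programme is driven by PTF1, a complex of the factor PTF1A with a partner of its own class and RBPJL. *Aldh1b1* encodes a mitochondrial aldehyde dehydrogenase that is expressed in pancreas progenitors.

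Depth was similar in both groups, with 17246804, 19496469 and 15212080 reads on genes in null replicates 1, 2 and 3, against 18223758, 17858553 and 18342428 in wild-type replicates 1, 2 and 3. *Aldh1b1* itself was counted 0, 0 and 3 times in the null libraries and 87, 86 and 121 times in the wild-type libraries. With the 3 libraries of each genotype added up, the *Aldh1b1* level in null islets was 1.29% of that in wild-type islets (exact 95% interval 0.264% to 3.80%, which covers counting error only). Some libraries stood apart. A chi-square of the reads over genes, divided by its degrees of freedom, was 37.3 between null replicate 3 and wild-type replicate 3, below the 107 and 74.3 between null replicate 3 and null replicates 1 and 2. Wild-type replicate 1 differed in its relation to gene length. The rank correlation across genes of a library's deviation from the mean of the 6 libraries with gene length was -0.479 in wild-type replicate 1, and from 0.0806 to 0.262 in the other 5.

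The share of reads on some cell type markers moved with the genotype, while for others the groups overlapped. Genes of acinar enzymes took 26.0%, 22.4% and 11.3% of the reads of null replicates 1, 2 and 3, against 3.44%, 2.20% and 6.90% in wild-type replicates 1, 2 and 3, and all 29 listed enzymes had reads in every library. Null replicate 3 held the lowest acinar share of the null libraries and wild-type replicate 3 the highest of the wild-type ones, and the groups did not overlap. Pan-endocrine genes, such as those of the chromogranins of hormone granules, took 0.472%, 0.515% and 0.889% in the null libraries, against 1.36%, 1.22% and 1.23% in the wild-type libraries. Beta cell genes, with the insulin genes among them, took 1.48%, 1.33% and 3.15%, against 7.69%, 4.87% and 5.07%. Genes of mesenchyme took 0.656%, 0.538% and 0.497%, against 0.445%, 0.494% and 0.492%, and those of macrophages and other leukocytes between 0.00897% and 0.0113%, against 0.0100% to 0.0118%. Duct genes took 0.498%, 0.61% and 0.627%, against 0.915%, 0.572% and 0.517%. Endothelial genes took 0.225%, 0.215% and 0.279%, against 0.238%, 0.271% and 0.263%. The groups overlapped in the duct, endothelial, leukocyte and neural genes. Erythroid genes took 0.00841%, 0.00703% and 0.0113%, against 0.0251%, 0.0163% and 0.0329%. In such bulk libraries fewer cells of a type and less RNA per cell cannot be told apart, and the part of the acinar share in the results below was not tested.

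**Figure D1:**
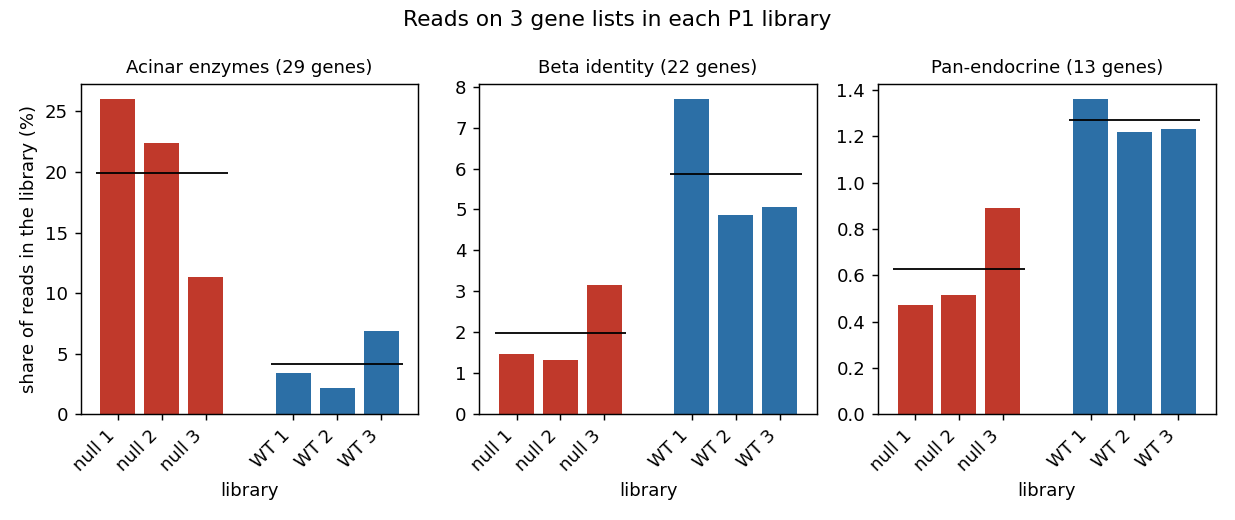
Share of the reads of each P1 library, in percent, that fell on acinar enzyme, beta cell and pan-endocrine genes, with null libraries on the left (red), wild-type libraries on the right (blue) and a black line at the mean of each group. The 3 null libraries held 11.3% to 26.0% of reads on acinar enzymes, against 2.20% to 6.90% in wild-type libraries, while their beta cell and pan-endocrine shares lay below those of all wild-type libraries.

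Of 18235 genes tested with limma on the log2 of the normalised count plus 1, 88 rose and 28 fell in null islets. A gene was called when its adjusted p did not exceed 0.1 and its fold of null over wild type was 1.6 or more, or 0.6 or less. The called genes were 0.483% (higher) and 0.154% (lower) of the genes tested, and 0.636% together, and 40 of the 116 had an adjusted p over 0.09. At an adjusted p under 0.05 limma called 10 higher (0.0548%) and 2 lower (0.0110%), or 0.0658% in all. An unadjusted p under 0.05 was reached by 15.0% of the genes, 8.73% on the higher and 6.24% on the lower side. In all 116 called genes the values of the null and wild-type libraries did not overlap, as in 12.7% (higher) and 10.9% (lower) of all genes tested. The counts moved with single libraries. Without null replicate 1 or null replicate 2 limma called 0 genes, although 1426 and 1365 genes then had an unadjusted p under 0.05. Without wild-type replicate 2 it called 10 higher and 2 lower. Without null replicate 3 it called 301 higher and 236 lower, without wild-type replicate 1 it called 398 and 173 (2.18% and 0.95%), and without wild-type replicate 3 it called 142 and 11. The direction of the 116 genes did not turn in any of the alternatives run. With no overlap between the groups, leaving out a library or changing the pseudocount or filter could not turn it. DESeq2 on the recovered reads called 530 higher and 288 lower, or 2.91% and 1.58% of genes, and edgeR 99 and 33, or 0.543% and 0.181%. With each library corrected for gene length limma called 295 and 142, or 1.62% and 0.779%.

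**Figure D2:**
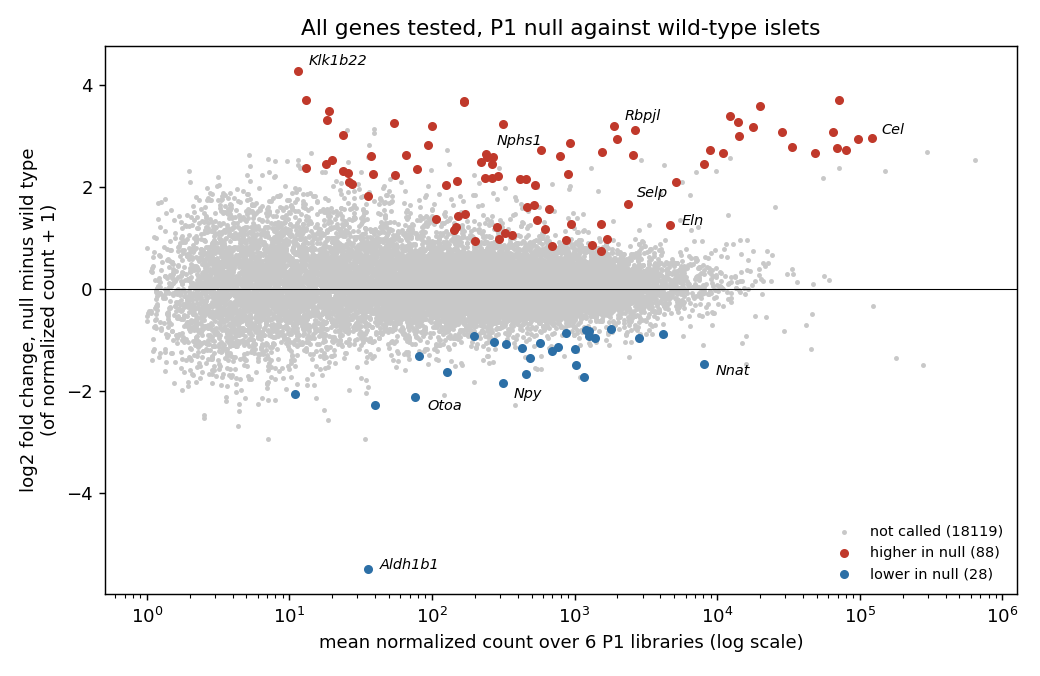
Log2 fold change of null over wild-type islets at P1 (of the normalised count plus 1) against the mean normalised count over the 6 libraries on a log axis, for the 18235 genes tested. The 88 called genes that were higher in null islets are red, the 28 lower ones blue and the other genes grey, and *Aldh1b1* is the lowest point at -5.50.

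The 12 genes with an adjusted p under 0.05 comprised the deleted gene, trypsin genes and their neighbours, an acinar transcription factor, adhesion molecules and a few others. Gene values from here on are normalised counts, the reads of a gene divided by the size factor of its library, in the order of replicates 1, 2 and 3. *Klk1b22*, of the tissue kallikrein family, had 20.8, 18.2 and 28.9 in null libraries, against 0.730, 0 and 0 in wild-type libraries. Its 74 null reads and 1 wild-type read gave a ratio of 93.5 (exact 95% interval 16.3 to 3740, which covers counting error only). In the fit on log2 of the normalised count plus 1, where the added 1 lowers the change of so rare a gene, the log2 change was 4.27 ± 0.48 (SE, adjusted p = 0.0242 from limma). Of the 9 *Klk1b* genes on chromosome 7 that were tested, it was the only one called, and the others ranged from -1.28 to 1.31 on the log2 scale. Kallikrein genes are near-identical, and the counting may split their reads.

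*Nphs1*, which encodes the adhesion protein nephrin known from the filter of the kidney, had 461, 523 and 262 in null libraries, against 64.2, 53.2 and 73.5 in wild-type libraries, a log2 change of 2.64 ± 0.28 (adjusted p = 0.0242 from limma). *Ceacam1*, a cell adhesion molecule of epithelia, had 787, 1072 and 693 in null libraries, against 147, 241 and 237 in wild-type libraries. *Selp*, which encodes P-selectin of endothelial cells and platelets, had 4229, 3209 and 3289.8 in null libraries, against 883, 1388 and 1173 in wild-type libraries. In *Ceacam1* and *Selp* null replicate 3 lay close to at least 1 of the other null libraries. *Selp* was the only 1 of 20 endothelial genes called, and the list as a whole had a median log2 change of 0.086 (0.013 without wild-type replicate 1 and 0.171 without wild-type replicate 3), against 0.027 over all genes tested. *Sele*, the related E-selectin gene, had 1397, 1315 and 1717 in null libraries, against 319, 709.5 and 765 in wild-type libraries, without passing the test (adjusted p = 0.118 from limma). *Tcea3*, a transcription elongation factor, had 142, 158 and 95.01 in null libraries, against 18.97, 25.2 and 30.9 in wild-type libraries. *Cryba2*, a crystallin gene, was the second gene beside *Aldh1b1* that fell at this threshold, with 199, 201 and 248 in null libraries, against 916, 574 and 615 in wild-type libraries.

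**Figure D3:**
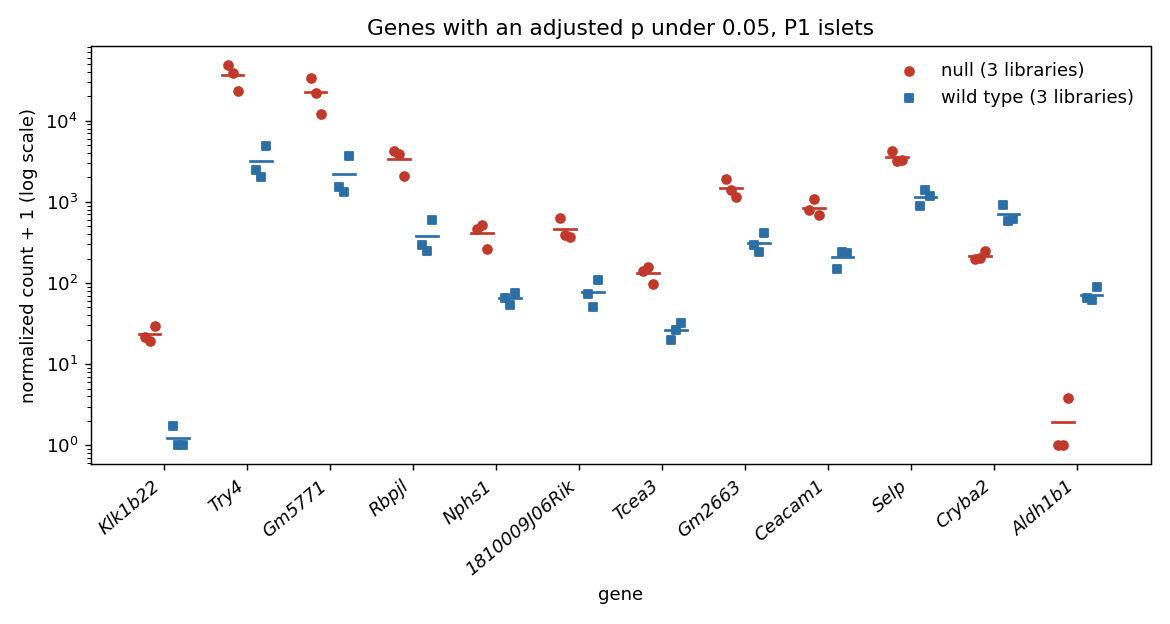
Normalised count plus 1 (log axis) of the 12 genes with an adjusted p under 0.05, in the 3 null libraries (red circles, left) and the 3 wild-type libraries (blue squares, right), with a line at the mean of each group. The groups do not overlap in any of these genes, and null replicate 3 is the lowest null value in *Try4*, *Gm5771*, *Rbpjl*, *Nphs1*, *1810009J06Rik*, *Tcea3*, *Gm2663* and *Ceacam1*.

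Digestive enzymes of the acinar cell made up the most abundant group that rose. Limma called 16 of the 29 acinar enzyme genes higher and 0 lower, all 29 lay above 0 and the median log2 change was 2.52. Limma called 25, 25 and 26 of them without null replicate 3, wild-type replicate 1 and wild-type replicate 3. It called 1 without wild-type replicate 2 and 0 without null replicate 1 or 2. The genes left short of the threshold included the most abundant one, the chymotrypsinogen gene *Ctrb1*, with 1477766, 1229278 and 562044 in null libraries, against 170718, 95571 and 329158 in wild-type libraries (adjusted p = 0.118 from limma). *Cel*, the bile salt-stimulated lipase, had 315691, 245211 and 88598 in null libraries, against 19897, 16542 and 44648 in wild-type libraries and rose by 2.96 on the log2 scale. *Cpa1*, a carboxypeptidase, had 172394, 131819.6 and 59510.5 in null libraries, against 15155, 10492 and 27693 in wild-type libraries. The carboxypeptidase gene *Cpb1* and the pancreatic ribonuclease *Rnase1* rose by 2.93 and 3.16, and *Gp2*, which encodes the major membrane glycoprotein of zymogen granules, rose by 3.28 ± 0.46. In each of these genes null replicate 3 lay below null replicates 1 and 2, and wild-type replicate 3 above wild-type replicates 1 and 2.

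Trypsin genes rose as a block of neighbours, of which *Try4*, *Try5*, *Prss1*, *Prss2* and *Prss3* were already counted above among the acinar enzymes. In GENCODE (GRCm38) 11 protein-coding genes lie between *1810009J06Rik* and *Prss2* on chromosome 6, from 40964754 to 41525079, and limma called 9 of them higher. Their log2 changes lay between 2.25 (*Gm2663*) and 3.70 (*2210010C04Rik*). The other two, *Try10* and *Gm10334*, were at 2.28 and 2.53 with adjusted p = 0.106 and 0.104 from limma. *Try4* had 48702, 38470.2 and 23407 in null libraries, against 2498, 2040.4 and 4950.3 in wild-type libraries. *Gm5771*, in the same stretch, had 33786, 21717 and 11969 in null libraries, against 1535, 1319 and 3728 in wild-type libraries. *Gm2663* and *1810009J06Rik* were far less abundant, with 1915, 1403 and 1163 and 624, 386 and 366 in null libraries, against 295, 237 and 409 and 72.2, 49.7 and 109.5 in wild-type libraries. Many trypsin genes are near-identical in sequence, so the reads of one may have been counted on another.

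Genes of acinar transcription factors moved in the same direction in part. Limma called 3 of 10 higher (*Rbpjl*, *Ptf1a* and *Gata4*) and 0 lower, and the median log2 change was 0.79. It called 1 of them without wild-type replicate 2 and 0 without null replicate 1 or 2. *Rbpjl*, the acinar subunit of PTF1, had 4261, 3870.1 and 2113 in null libraries, against 297, 249.8 and 601 in wild-type libraries. *Ptf1a*, the gene of another subunit, had 225, 145 and 119 in null libraries, against 21.2, 9.80 and 46.3 in wild-type libraries, a log2 change of 2.82 ± 0.50 (adjusted p = 0.0806 from limma). *Gata4*, a zinc finger factor, had 661, 524 and 255 in null libraries, against 72.2, 73.5 and 165 in wild-type libraries. *Xbp1*, a factor of the secretory apparatus that endocrine cells also express, had 7447, 7418 and 5543 in null libraries, against 5105, 4025 and 4728 in wild-type libraries (adjusted p = 0.216 from limma), and *Prox1* had 1020.2, 1065 and 1424 in null libraries, against 767, 1509 and 1604 in wild-type libraries, with overlapping groups.

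PTF1 binds an E-box beside a motif of the RBPJ type, so the promoters of the called genes were searched for the pair. The search used a single definition, chosen after the called genes were known. It took an E-box (the motif CACCTG, its reverse complement CAGGTG or the palindrome CAGCTG) that lay within 20 bases of the motif TGGGAA or of its reverse complement TTCCCA, on both strands and without overlap. The window ran from 250 bases before the start of the gene to 50 bases after it. The pair was present in 10 of the 59 genes called higher that had a promoter in the RefSeq table of GRCm38.p6 (16.9%), in 1 of 19 called lower (5.26%) and in 1.99% of all 11494 tested genes with a promoter. Of 87 symbols called higher, 28 had no entry. Among the genes called higher that were in no acinar or Reg list, 5 of 43 (11.6%) held the pair. They were *2210010C04Rik*, *Gm2663* and *Gm5771* of the trypsin stretch, *Aqp12* and *Steap4*. Genes of the trypsin stretch can thus be in no list, and being in no list does not mark a gene as not acinar. Holding the pair does not mark a gene as acinar either. An E-box, with or without the other motif, was present in 55.9% of those called higher, 63.2% of those called lower and 36.2% of all genes. For the RBPJ-type motif these shares were 37.3%, 15.8% and 27.5%. The E-box by itself was thus no more common in the genes called higher than in those called lower. These shares are a description of the letters in the window, without a test. The promoters of *Rbpjl* (chr2:164402944-164403243, plus strand), *Cel* (chr2:28563354-28563653, minus strand), *Prss1* (chr6:41458680-41458979, plus strand) and *Aqp12* (chr1:93006084-93006383, plus strand) are shown because they hold the pair, which is in capitals.
Rbpjl: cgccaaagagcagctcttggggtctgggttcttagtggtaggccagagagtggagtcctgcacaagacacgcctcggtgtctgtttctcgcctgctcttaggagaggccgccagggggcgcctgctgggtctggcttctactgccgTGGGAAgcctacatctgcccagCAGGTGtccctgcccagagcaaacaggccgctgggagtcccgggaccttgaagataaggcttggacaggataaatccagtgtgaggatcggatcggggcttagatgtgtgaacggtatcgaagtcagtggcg
Cel: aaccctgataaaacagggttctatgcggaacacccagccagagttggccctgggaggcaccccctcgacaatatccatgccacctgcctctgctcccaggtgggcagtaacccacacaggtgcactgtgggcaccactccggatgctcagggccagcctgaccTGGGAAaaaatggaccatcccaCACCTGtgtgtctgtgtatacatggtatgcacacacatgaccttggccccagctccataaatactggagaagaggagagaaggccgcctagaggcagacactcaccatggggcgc
Prss1: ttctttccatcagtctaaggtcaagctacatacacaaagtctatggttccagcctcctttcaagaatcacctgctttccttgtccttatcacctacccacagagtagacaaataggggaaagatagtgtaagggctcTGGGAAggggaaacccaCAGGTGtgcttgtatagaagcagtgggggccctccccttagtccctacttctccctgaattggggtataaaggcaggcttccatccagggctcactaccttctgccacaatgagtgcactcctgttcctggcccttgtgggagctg
Aqp12: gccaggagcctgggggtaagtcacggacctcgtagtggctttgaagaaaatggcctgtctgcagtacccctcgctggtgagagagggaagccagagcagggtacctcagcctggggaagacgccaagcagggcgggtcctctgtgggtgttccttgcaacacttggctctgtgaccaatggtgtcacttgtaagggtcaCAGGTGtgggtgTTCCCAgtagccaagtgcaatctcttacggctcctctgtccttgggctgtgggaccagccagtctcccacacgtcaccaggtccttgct

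In *Rbpjl* and *Cel* both motifs were 16 bases apart, in *Prss1* 11 and in *Aqp12* 6. The *Gm5771* promoter held the pair at the same spacing as *Prss1*, in a stretch of nearly the same letters. Both are neighbours of *2210010C04Rik* and *Gm2663* in the trypsin stretch, so the genes with the pair are not all separate instances. The other genes called higher with the pair were *Cpa1*, *2210010C04Rik*, *Gm2663*, *Reg3d* and *Steap4*, and the gene called lower was *Vkorc1*. *Prss1* had 38913, 22955 and 13519.8 in null libraries, against 2517, 1704 and 5496 in wild-type libraries, and *Aqp12*, an aquaporin of the acinar cell, had 955, 707 and 355 in null libraries, against 139, 82.6 and 233 in wild-type libraries (adjusted p = 0.0998 from limma).

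Other called genes encode further secreted proteins. The Reg family, secreted lectins of the regenerating gene locus, had 2 of 6 members called higher (*Reg3d* and *Reg1*), 6 of 6 above 0 and a median log2 change of 2.92. *Reg3d* had 934, 479.6 and 305 in null libraries, against 59.1, 27.3 and 96.3 in wild-type libraries, and *Reg1*, the most abundant, had 102249, 54361 and 22084 in null libraries, against 8447, 4138 and 10943 in wild-type libraries. *Tff2*, a trefoil peptide of mucous epithelia, had 4760.2, 4403 and 1381 in null libraries, against 548, 208 and 565 in wild-type libraries, and *Serpini2*, a serine protease inhibitor of the pancreas, had 6982, 5651 and 1798 in null libraries, against 406, 292 and 902 in wild-type libraries. *Pga5*, a pepsinogen gene, had 222, 252 and 71.7 in null libraries, against 10.9, 11.2 and 36.0 in wild-type libraries, at much lower levels. *Krt20*, a keratin of intestinal epithelium, had 2140.4, 2034 and 742 in null libraries, against 182, 156 and 289.6 in wild-type libraries and a log2 change of 2.87 ± 0.40 (adjusted p = 0.0533 from limma).

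Some called genes act in amino acid metabolism, and they stood on both sides: *Arg1* and the transporter *Slc38a5*, described with the genes called lower, fell by 1.08 and 0.96 on the log2 scale, and those that follow rose. No list of such genes was tested. They and the genes in the next 2 paragraphs were picked from the called genes after their values were seen, except *Tdh* and *Spock1*. *Tdh*, threonine dehydrogenase, was in the table as 2 entries that share nearly all reads, of which the longer had 415, 385 and 124 in null libraries, against 12.4, 9.80 and 64.7 in wild-type libraries. *Gatm*, which catalyses the first step of creatine synthesis, had 6110.2, 5129 and 2168 in null libraries, against 630.4, 518 and 901 in wild-type libraries. *Gls2*, the liver-type glutaminase, and the glutamine transporter *Slc38a3* rose by 2.71 and 2.61 on the log2 scale, and the glycine transporter *Slc6a9* by 1.64. In energy metabolism *Pfkfb3*, which makes the activator of phosphofructokinase, had 1638, 1871 and 1603 in null libraries, against 831, 1039.8 and 945 in wild-type libraries. The values of *Pfkfb3* were nearly level across the 3 null libraries, whereas *Gatm* was lowest in null replicate 3.

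Some of the genes called higher encode proteins of the extracellular matrix or its receptors, a group that was put together from called genes and not counted as a list. The proteoglycan gene *Spock1*, described with the genes called lower, went the other way, with a log2 change of -1.17. *Eln*, elastin, had 9423, 5504 and 5122 in null libraries, against 2476, 2930.4 and 2729 in wild-type libraries. *Tnc*, tenascin C, had 489, 499 and 345 in null libraries, against 206, 236 and 176 in wild-type libraries, and *Col27a1*, a fibrillar collagen, had 1333, 1054 and 1057 in null libraries, against 476, 682 and 619 in wild-type libraries. *Itgb4* and *Lamb3*, an integrin and a laminin chain that meet in the hemidesmosomes of epithelia, rose by 1.27 ± 0.20 and 1.43 ± 0.24 (adjusted p = 0.0694 and 0.0802 from limma). *Tgfb2*, a growth factor, had 883, 964 and 832 in null libraries, against 442, 523 and 542 in wild-type libraries. The mesenchyme markers are set beside these genes: limma called 0 of 20, 17 lay above 0 and their median log2 change was 0.43, and *Col1a1* had 12818, 8403 and 5925 in null libraries, against 2652, 4347 and 5063 in wild-type libraries (adjusted p = 0.17 from limma). The part of mesenchymal cells in the matrix genes was not tested.

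Among the remaining called genes, *Pmaip1*, a p53 target that promotes apoptosis, had 353, 416 and 427 in null libraries, against 195, 142 and 179 in wild-type libraries and a log2 change of 1.22 ± 0.19 (adjusted p = 0.0694 from limma). *Runx1*, a transcription factor of the Runt class, had 808, 1063 and 709.8 in null libraries, against 367, 459 and 312 in wild-type libraries, and *Sema6a*, a membrane-bound semaphorin, had 2331, 2447 and 1708 in null libraries, against 671, 1075 and 949 in wild-type libraries. *Xirp1* and *Myom1*, proteins of striated muscle, rose by 2.63 and 1.16. *Xirp1* had 115, 112 and 109.9 in null libraries, against 20.4, 27.99 and 8.82 in wild-type libraries, so that the null libraries were within a few counts of each other and stood clear of the wild-type ones.

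Null replicate 3 lay nearest to the wild-type libraries in most of the called genes, as in the shares of reads. In the 21 genes called higher that were in an acinar or Reg list, null replicate 3 was the lowest null value in 21, and had a median 0.432 of the mean of null replicates 1 and 2. In the other 67 genes called higher it was lowest in 59, with a median of 0.637 and a range from 0.209 to 1.46. These 67 include genes of the trypsin stretch, such as *2210010C04Rik* and *Gm5771*, so the split does not part acinar from other genes. In the 28 genes called lower it was the highest null value in 26, with a median of 1.31. Among the 11410 genes whose mean reached 100 the median ratio was 1.01. Scaling by size factors brings such a median near 1, and it mixes genes of both directions. It is therefore no background for the counts above, and the matching share over all genes was not counted. These ratios are a description chosen after the values were seen.

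**Figure D4:**
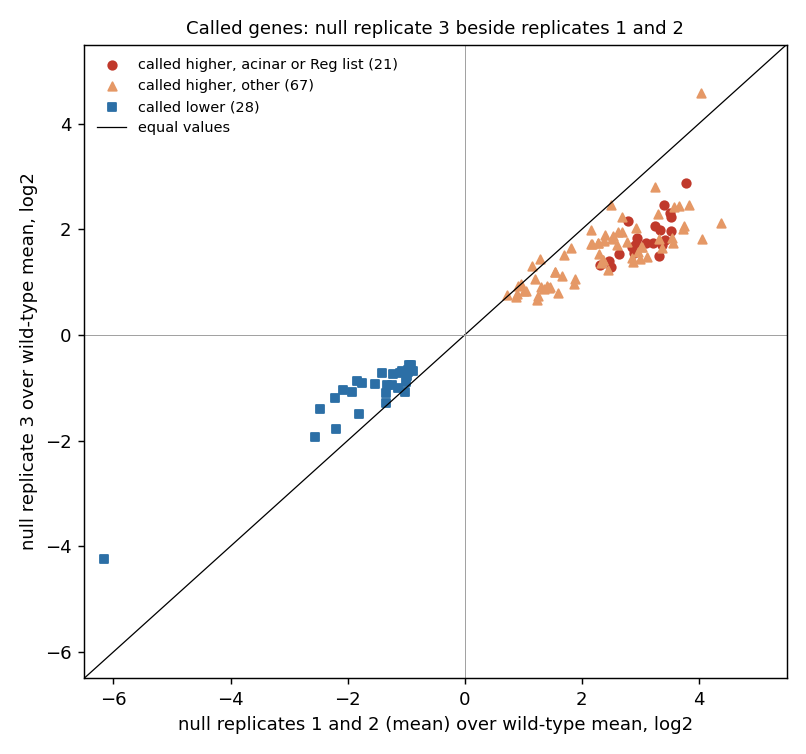
Null replicate 3 over the wild-type mean (vertical) against the mean of null replicates 1 and 2 over the wild-type mean (horizontal), both as log2 of normalised counts plus 1, for the 116 called genes; the line marks equal values. The 21 acinar and Reg genes (red) lie below the line, as do most of the other 67 genes called higher (orange), most of the 28 genes called lower (blue) lie above it, and all points keep the sign of replicates 1 and 2.

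Transcription factors of endocrine cells were among the genes that fell. Limma called 4 of 31 lower (*Isl1*, *Nkx2-2* and *Mafa* among them) and 0 higher, 26 lay below 0 and the median log2 change was -0.63. *Isl1*, a LIM homeodomain factor of all islet cell types, had 886, 772 and 947 in null libraries, against 1459, 1459 and 1642 in wild-type libraries, a log2 change of -0.81 ± 0.15 (adjusted p = 0.0901 from limma). *Nkx2-2* had 799, 784 and 1037 in null libraries, against 2001, 1509 and 1498 in wild-type libraries, and *Mafa*, a factor of mature beta cells, had 210.0, 152 and 174 in null libraries, against 435, 356 and 312 in wild-type libraries, just inside the threshold (adjusted p = 0.0998 from limma). The groups did not overlap in these factors. Limma called 8 of the 31 lower without null replicate 3, 12 without wild-type replicate 1 and 0 without any other library. Outside the threshold, *Nkx6-1* had 1499.6, 1459 and 2034 in null libraries, against 3408, 2616 and 2335 in wild-type libraries (adjusted p = 0.159 from limma). For *Pdx1* the values were 661, 620.2 and 1176 in null libraries, against 1582, 1573 and 1144 in wild-type libraries, and null replicate 3 lay above wild-type replicate 3. *Sox4*, at 2908, 3340.0 and 4412 in null libraries, against 3141, 3478 and 3953 in wild-type libraries, was close to 0 on the log2 scale (-0.0036).

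Most genes of the beta cell phenotype had lower values in null islets, and few passed the test. Limma called 2 of 22 lower (*Npy* and *Nnat*), 21 lay below 0 and the median log2 change was -1.05, against -0.75 in the 13 pan-endocrine genes, of which it called 0. With null replicate 3 left out it called 11 of the beta cell and 6 of the pan-endocrine genes, and with wild-type replicate 1 left out 12 and 5. It called 1 of the beta cell genes without wild-type replicate 3 and 0 without any other library. *Nnat*, an imprinted gene whose product aids insulin processing, had 3082, 3919.7 and 6319.8 in null libraries, against 11704, 11526 and 12339.6 in wild-type libraries, and *Npy*, the neuropeptide Y gene of immature beta cells, had 82.2, 126 and 212 in null libraries, against 323, 588 and 554 in wild-type libraries. Of the hormones, *Ins1* had 87031, 71468 and 148899.6 in null libraries, against 341983, 204372 and 225088 in wild-type libraries and *Ins2* 120605, 102501 and 222292 in null libraries, against 553464, 308338 and 355540.4 in wild-type libraries, without overlap between groups and with adjusted p = 0.166 and 0.167 from limma. *Sst* had 6213, 6707 and 11680.2 in null libraries, against 36708, 16332 and 17255 in wild-type libraries (adjusted p = 0.137 from limma). *Gcg* had 118338, 110699 and 96163 in null libraries, against 159690.1, 127982 and 127129 in wild-type libraries, and a log2 change of -0.35 (adjusted p = 0.549 from limma). *Ppy* and *Ghrl*, for pancreatic polypeptide and ghrelin, were at -0.53 and -0.81, and the *Ppy* values overlapped. In the alpha cell list limma called 2 of 13 genes lower, among them *Slc38a5*, a glutamine transporter of alpha cells, which had 1811, 1903 and 2004 in null libraries, against 3569.6, 3718 and 3865 in wild-type libraries.

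The other genes called lower had varied roles. *Prss53*, a serine protease gene, had 445, 384 and 854 in null libraries, against 1568, 1645 and 2045 in wild-type libraries, and *Ppp1r1a*, an inhibitor of protein phosphatase that is abundant in beta cells, had 456, 379.6 and 809 in null libraries, against 1745, 1177 and 1542 in wild-type libraries. *Slc2a5*, the fructose transporter, had 556, 483 and 844 in null libraries, against 1408, 1379 and 1362 in wild-type libraries. *Arg1*, arginase, had 208, 196 and 224 in null libraries, against 534, 405 and 403 in wild-type libraries, and *H1fx*, a linker histone, had 414, 361 and 455 in null libraries, against 1288, 781 and 872 in wild-type libraries. *Spock1*, a proteoglycan, and *Tmem163*, a zinc transporter of vesicles, fell by 1.17 and 1.06 on the log2 scale. *C2cd4a* had 42.6, 57.1 and 90.3 in null libraries, against 188, 154 and 232 in wild-type libraries, *Tmem215* had 308, 172 and 364 in null libraries, against 699, 689.9 and 690.3 in wild-type libraries and *Fam151a* had 439, 447 and 540.2 in null libraries, against 1143, 1002 and 987 in wild-type libraries. In these genes null replicate 3 again was the highest null value.

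The genes called lower were set against the pan-endocrine genes, none of which passed the test by itself, by scaling each library to the geometric mean of the 13 pan-endocrine genes, which was 3224, 3395 and 4827 in null libraries and 6644, 6266 and 6355 in wild-type libraries. This scaling moved the median log2 change of all genes to 0.78, and the same thresholds then called 53 genes lower (0.291% of those tested) and 9744 higher. Of the 28 genes, 8 were still called lower (*Aldh1b1*, *Ifi27l2a*, *4732456N10Rik*, *Otoa*, *Npy*, *Prss53*, *Cryba2* and *C2cd4a*), and all 28 stayed below 0, with a median of -0.40. *Npy* was at -1.08 ± 0.32 (adjusted p = 0.0125 from limma), *Prss53* at -0.95 ± 0.27 (0.0104) and *C2cd4a* at -0.86 ± 0.33 (0.0378). By contrast, transcription factors called on unscaled values were close to the pan-endocrine genes, with *Mafa* at -0.26 ± 0.30 (adjusted p = 0.449 from limma), *Nkx2-2* at -0.16 ± 0.26 (0.596) and *Isl1* at -0.035 ± 0.26 (0.91). The list of transcription factors had a median of 0.096 on this scale, with 11 of 31 below 0. Of these factors, 4 (*Insm1*, *Neurod1*, *Rfx6* and *Pax6*) also belong to the 13 genes that set the scale, and the other 27 had a median of 0.26, with 9 below 0. The beta cell list, which shares no gene with the scale, had a median of -0.27, with 14 of 22 below 0. The 28 genes were chosen on unscaled values, so their place on the scaled axis is no independent test. *Otoa*, first known from the inner ear, had 25.8, 16.5 and 45.6 in null libraries, against 126, 100.1 and 140.4 in wild-type libraries in unscaled counts, and *Ifi27l2a*, an interferon-induced gene, had 12.9, 8.27 and 16.8 in null libraries, against 101, 48.3 and 52.2 in wild-type libraries.

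**Figure D5:**
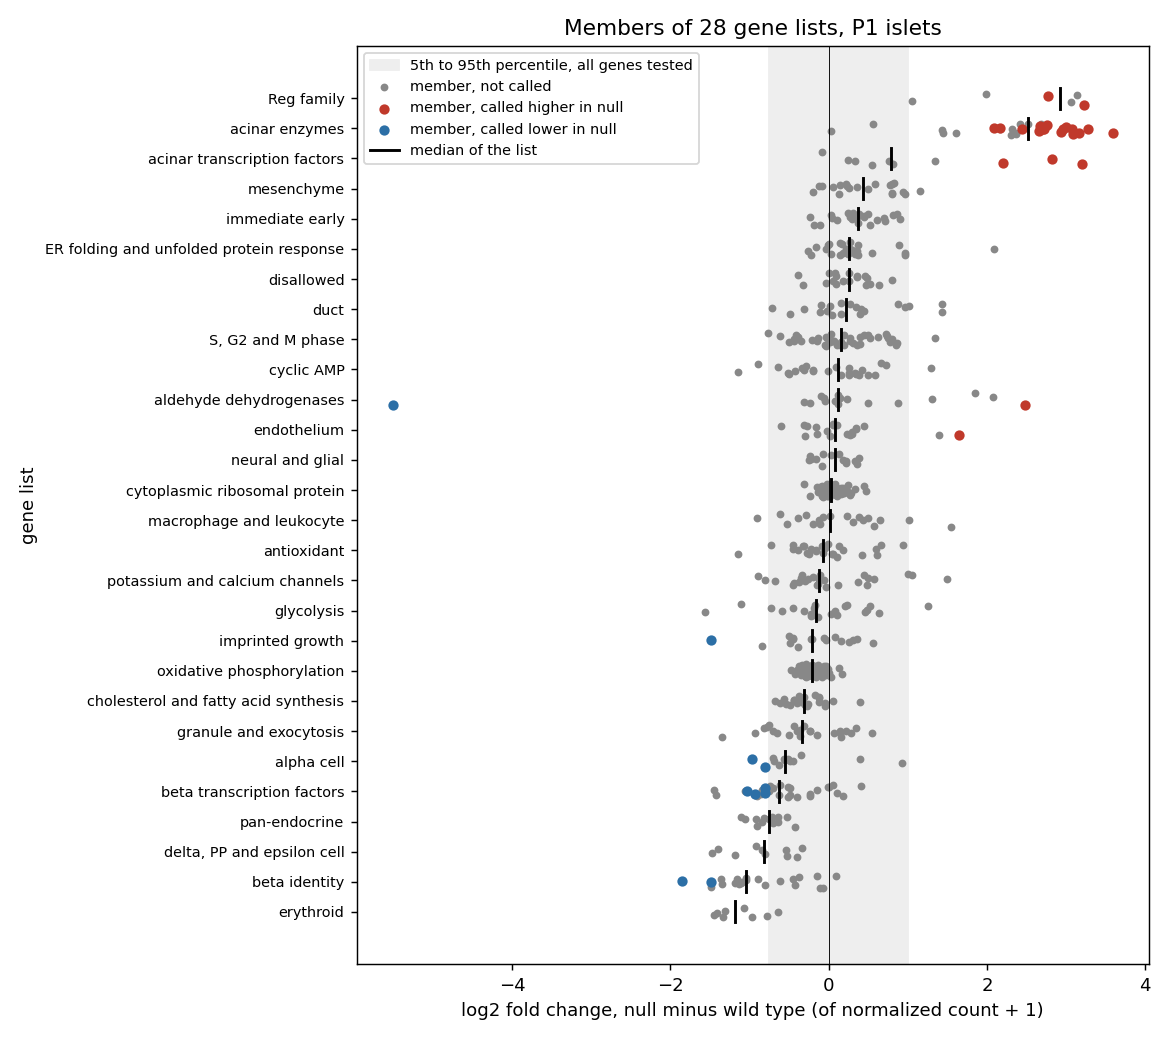
Log2 fold change of null over wild-type islets for each member of 28 gene lists (points), ordered by the median of the list (black bar), with members called higher in red, called lower in blue and the 5th to 95th percentile of all genes tested (-0.75 to 1.00) shaded. Reg and acinar enzyme genes stand at the top with medians of 2.92 and 2.52, and erythroid and beta cell genes at the bottom with medians of -1.19 and -1.05.

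Aldehyde dehydrogenases were examined because the deleted gene belongs to them. Of 17 tested members limma called *Aldh1b1* lower and *Aldh1a7* higher, and the median log2 change was 0.12. *Aldh1a7* had 543, 414 and 179 in null libraries, against 47.4, 46.2 and 101 in wild-type libraries and a log2 change of 2.48 ± 0.44 (adjusted p = 0.0806 from limma). *Aldh1a7* is a close copy of *Aldh1a1*, and the counting may share their reads. *Aldh1a2*, a retinaldehyde dehydrogenase, had 88.2, 110.0 and 36.3 in null libraries, against 19.7, 22.4 and 15.4 in wild-type libraries (adjusted p = 0.125 from limma), and *Aldh7a1* had 1472, 1227 and 969 in null libraries, against 604, 591 and 799 in wild-type libraries (adjusted p = 0.129 from limma), both without overlap and outside the threshold.

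The genotype effect at P1 was set against that at week 8 for the 12 genes with an adjusted p under 0.05. In 1 fit of all 12 libraries the difference between ages passed an adjusted p of 0.05 for all of them except *Aldh1b1* (adjusted p = 0.621 from limma) and *Klk1b22* (0.599). The 12 genes were chosen on P1 values that enter this test, and 21.8% of all 18338 genes passed it. P1 libraries were pools of 3 mice and week 8 libraries held 1 mouse each, so age and pooling cannot be told apart in this fit. Acinar enzyme genes took 12.6%, 23.9% and 13.8% of reads in the null libraries of week 8, against 49.9%, 49.0% and 55.1% in the wild-type libraries, and the part of this share in the differences between ages was not tested. *Aldh1b1* was at -5.50 at P1 and -6.09 at week 8. *Klk1b22* was at 4.27 at P1 and 3.03 at week 8, where the 3 null animals had 0, 27.6 and 46.3 normalised counts and the 3 wild-type animals 1.47, 0 and 0.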

How the data were processed

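Poly(A) RNA of islets was read as single reads from strand-specific libraries. The authors deposited a signal per gene and library, the reads per gene divided by a DESeq size factor. Named in the notes of the submitters are bedtools 2.11, DESeq 1.10.1 and the build mm9. Ensembl 67 is named in the header of the table. For the aligner and the counting options the sources used here give no name or setting. The authors' fold changes, p-values and group means stand in the same table and were not used. In each P1 library 100% of values lay within 0.001 of a whole number of reads, so reads were recovered for the count-based alternatives. Libraries of a group differed by more than sampling noise, and each counted as a replicate.

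The 6 P1 libraries were compared with limma 3.58.1 (trend, R 4.3.3) on log2(normalised count + 1), over genes with a mean of at least 1, and p-values were adjusted by Benjamini-Hochberg. Changes of genes with low counts are understated by the pseudocount. The thresholds for a call follow the study's methods. They were set when the number of calls at them (116) and at an adjusted p under 0.05 (12) was already known, and both counts are given. Alternatives were other pseudocounts (0.1, 10), filters and normalizations, edgeR 4.0.16, DESeq2 1.42.0 and limma voom on recovered reads, a loess correction for gene length (span 0.4), a joint fit of all 12 libraries, a block for the replicate number, and leaving out each library in turn. The tests were tested on simulated data. The comparison, the 28 gene lists, the thresholds and the alternatives were chosen with earlier results of these data known, and the promoter motif with the called genes known. The genes named are those with an adjusted p under 0.05, up to 15 higher and 15 lower called genes with the largest change and a mean of at least 100, the list members with the smallest p in each direction and the most abundant one, the hormones and the genes the study names; others were picked after their values were seen, as stated. Some genes that the rule selects are not reported here. Of duplicated symbols (146) the most abundant entry stands for a list member. Promoters were taken from RefSeq (GRCm38.p6) by symbol. Python 3.11.15 served for the plots, with matplotlib 3.10.9 and pandas 2.3.3.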

Additional observations from a re-analysis of the deposited data

Results flagged for a closer look

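For 10 genes the effect of the genotype at P1 differed from that at week 8 in the fit of all 12 libraries (limma, adjusted p from 4.67e-05 to 0.0292). The P1 log2 change minus the week 8 one was 9.02 for *Selp*, 6.01 for *Try4*, 5.995 for *Rbpjl*, 5.70 for *Gm5771*, 5.14 for *Nphs1*, 4.73 for *Ceacam1*, 4.57 for *Tcea3*, 4.29 for *1810009J06Rik*, 3.81 for *Gm2663* and -2.29 for *Cryba2*. These genes were chosen on their P1 values, and 3990 of 18338 genes passed an adjusted p of 0.05 in the same test. *Selp* was at 1.65 at P1 and -7.37 at week 8, where the 3 null animals had 135, 5.70 and 4.34 normalised counts, against 6766, 707 and 4584 in the 3 wild-type animals. *Cryba2* was at -1.67 at P1 and 0.62 at week 8. *Gm2663* and *1810009J06Rik* were nearly without reads at week 8, between 0 and 22.1 normalised counts in all 6 libraries. The acinar share of reads, given with the comparison of ages, was lower in null than in wild-type islets at week 8 and higher at P1. Its part in these differences was not tested, and pooling, which differed between the ages, cannot be told apart from age.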

How the results depend on the processing

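The counts of 88 genes higher and 28 lower became 58 and 15 with a pseudocount of 0.1, 133 and 44 with one of 10, 253 and 165 with all 12 libraries in the fit, 295 and 142 after correction for gene length, 530 and 288 in DESeq2 and 9744 and 53 on the pan-endocrine scale. At an adjusted p under 0.05 they were 10 and 2. Within 1.5 times of the main counts stayed no filter, a mean of at least 10, TMM, upper quartile, edgeR and limma voom, with 70 to 115 higher and 23 to 37 lower. Leaving out 1 library gave 0 to 398 higher and 0 to 236 lower, with 0 of either without null replicate 1 or null replicate 2 and 10 and 2 without wild-type replicate 2. The cause of these changes was not tested. Among called genes 64.8% were higher in DESeq2 and 60.5% with all 12 libraries, against 75.9% in the main fit. The replicate numbers are shared by both groups, but nothing says that they pair the pools. Deviations of same-numbered libraries correlated at 0.064, -0.0369 and -0.00642 over 12918 genes. With the replicate number as a block limma called 100 higher and 40 lower, of which 75 and 20 were among the main calls, and 51 and 39 with the block and the correction for gene length together. Depth, from 15212080 to 19496469 reads on genes, was of like size in all 6 libraries.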

Other observations

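Several lists not described above held 0 called genes at P1. Genes of the endoplasmic reticulum and the unfolded protein response had a median log2 change of 0.26, with 23 of 28 above 0 and 0 called. *Pdia2*, a disulphide isomerase of acinar cells, had 12215, 9879 and 5237 in null libraries, against 1573, 1293 and 3981 in wild-type libraries (adjusted p = 0.106 from limma), and *Hspa5*, the chaperone BiP, had 37903, 34464 and 28999 in null libraries, against 27339, 24406 and 31125 in wild-type libraries, with overlapping groups. Immediate early genes had a median of 0.37, with 21 of 24 above 0 and 0 called, and *Nr4a2* had 1279, 985 and 1089 in null libraries, against 461, 616 and 733 in wild-type libraries (adjusted p = 0.118 from limma). Genes of the S, G2 and M phases had a median of 0.15 and 0 of 42 called. Without null replicate 3 limma called 7 of them higher, beside 301 of all 18231 genes tested in that fit. It called 1 without wild-type replicate 1 and 0 without any other library. The replication gene *Mcm6* had 1886, 1479 and 850.4 in null libraries, against 717, 638 and 859 in wild-type libraries, while *Ccnb2*, a mitotic cyclin, had 249.6, 275 and 235 in null libraries, against 425, 321 and 424 in wild-type libraries, and neither passed the test (adjusted p = 0.211 and 0.193 from limma). Erythroid genes had a median of -1.19, with 8 of 8 below 0 and 0 called, and *Hbb-b1*, an adult globin, had 815, 662 and 888 in null libraries, against 1830.0, 1033 and 2316 in wild-type libraries (adjusted p = 0.153 from limma).

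In metabolism, 45 of 49 genes of oxidative phosphorylation and 22 of 24 of cholesterol and fatty acid synthesis lay below 0, with medians of -0.21 and -0.31 and 0 called. The first of these medians was 0.017 without wild-type replicate 1. *Hk2*, a hexokinase, had 435, 396 and 229.1 in null libraries, against 90.5, 164 and 194 in wild-type libraries (adjusted p = 0.16 from limma). Genes described as disallowed in mature beta cells had a median of 0.25, with 16 of 19 above 0 and 0 called. Duct genes had a median of 0.21 and 0 of 20 called. *Cftr*, the chloride channel of ducts, had 128, 178 and 130.4 in null libraries, against 36.5, 65.8 and 60.3 in wild-type libraries (adjusted p = 0.104 from limma), whereas the duct keratin *Krt7* had 2174, 2506 and 3613 in null libraries, against 5716, 4063 and 3748 in wild-type libraries and a log2 change of -0.71 (adjusted p = 0.215 from limma).

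Among the remaining lists, limma called *Nnat* lower out of 17 imprinted growth genes, which had a median of -0.21. In the following lists it called 0 genes, with medians of -0.34 for 24 genes of granules and exocytosis, -0.12 for 28 potassium and calcium channels, 0.12 for 26 genes of cyclic AMP signalling, -0.16 for 22 of glycolysis, -0.075 for 26 antioxidant genes, 0.082 for 14 neural and glial genes, 0.021 for 19 of macrophages and leukocytes and 0.03 for 50 cytoplasmic ribosomal proteins. The 10 delta, PP and epsilon cell genes had a median of -0.82 and 0 calls, and the 13 alpha cell genes had a median of -0.55 and 2 calls, against 0.027 over all genes tested. Many of these medians moved when 1 library was left out. Leaving out wild-type replicate 1 gave -0.371 for the channels, -0.154 for cyclic AMP, -0.049 for glycolysis, 0.113 for the antioxidant genes, -0.085 for the neural and 0.319 for the ribosomal genes, and 0.054 for the S, G2 and M phases. Leaving out wild-type replicate 2 gave 0.05 for the channels, -0.195 for the antioxidant genes, -0.132 for the ribosomal, -0.382 for the oxidative phosphorylation, -0.068 for the imprinted, 0.145 for the disallowed, -0.201 for the cholesterol and fatty acid and 0.096 for the duct genes. Leaving out wild-type replicate 3 gave 0.274 for cyclic AMP, 0.273 for the S, G2 and M phases and -0.775 for the erythroid genes. Leaving out null replicate 1 gave 0.159 for the endoplasmic reticulum, 0.191 for the neural and -0.167 for the leukocyte genes, and leaving out null replicate 3 gave 0.394 for the leukocyte genes. The genes named in these paragraphs were picked after their values were seen.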
